A study of Mus musculus with 8 samples.

Results

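The 10 genes described here mark fibroblasts that carry the surface protein CD81 and little of the receptor PDGFRα: Cd81, Cd34, Ackr4, Pi16, Ly6c1, Ly6a, Dpt, Has1, Adamdec1 and Fgfr2. They were taken as a fixed list of symbols, and all 10 were found among the 24346 genes listed for each library. The 8 RNA sequencing libraries came from mesenchymal cells of the mouse large intestine, sorted as negative for CD45, EpCAM, CD31 and Ly6C, positive for gp38 (podoplanin) and high for PDGFRα. An untreated Cxcl12 flox/flox library (the floxed control) and an untreated Foxl1cre; Cxcl12 flox/flox library (the conditional knockout) form the genotype set, 1 library each. The other set holds cells of C57BL/6 mice treated with 1 mM GABA and 20 mM taurine, with 3 libraries at 0 h and 3 at 6 h. Both genotype libraries carry the floxed Cxcl12 alleles, and Cre is driven by Foxl1, so recombination is limited to cells with Foxl1 activity. The sources used here do not give the age and sex of the mice, whether animals were pooled or whether the treated cells were cultured.

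Fibroblasts under the gut epithelium differ by their distance from it. Cells with abundant PDGFRα, among them Foxl1-expressing cells, lie against the epithelium and supply BMP and Wnt ligands, while CD81-positive cells with little PDGFRα lie deeper, near crypt bases and vessels, and are known as a source of the BMP antagonist Grem1. Pi16 and Dpt are widely used markers of adventitial fibroblasts in many organs, and Cd34, Ly6a and Ly6c1 are shared with endothelial or blood cells.

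The gate was set for PDGFRα and against Ly6C. Each of the 10 genes stood at 10 FPKM or more in both genotype libraries, and 5 or 6 did in each GABA and taurine library. Of the 12043 genes whose mean over the 8 libraries reached 1 FPKM, 6435 averaged 10 FPKM or more in the genotype set. FPKM are fragments scaled by transcript length and by the mapped fragments of the library, so levels can be compared between genes. Pdgfra itself stood at 201.8 FPKM in the floxed control and 225.7 FPKM in the conditional knockout library, and between 152.3 and 227.3 FPKM in the GABA and taurine libraries. The label of a PDGFRα-low cell is therefore not separable here: RNA of the marker genes and of Pdgfra came from the same bulk sort, and whether the same cells carried both was not measured. In bulk RNA, fewer cells of a type and less RNA per cell cannot be told apart. Cxcl12, the floxed gene, stood at 1298 FPKM in the floxed control and 739.7 FPKM in the conditional knockout library. Total FPKM ran from 513001 to 579004 per library, the number of reads is unknown, and 20874 to 21006 genes were above 0 in the genotype libraries against 14818 to 14974 in the others.

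All 10 genes are protein-coding, and their positions are given on GRCm38, which is mm10, from RefSeq. Cd81 spans 143052750 to 143067930 and Fgfr2 130162451 to 130266808 on chromosome 7. Cd34 spans 194938821 to 194961292 and Dpt 164796663 to 164824274 on chromosome 1, and Ackr4 spans 104097682 to 104126643 on chromosome 9. Has1 lies at 17833691 to 17855589 and Pi16 at 29318796 to 29328903 on chromosome 17, and Adamdec1 at 68563387 to 68582072 on chromosome 14. Ly6a (74994877 to 74998031) and Ly6c1 (75044018 to 75048920) are neighbours in the Ly6 cluster of chromosome 15, as is Ly6c2 (75108161 to 75112066), the other gene whose product carries the Ly6C antigen.

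Promoter sequence was available for 8 of the 10 genes in the RefSeq table of GRCm38.p6, and Ly6a and Adamdec1 were not matched. The 250 bases before an annotated transcript start are shown for 2 genes with a large difference between the library sets (Ackr4 and Dpt). They are also shown for the 2 genes with nearly level values (Cd81 and Has1). The Has1 window lies within the gene span given above, so its start is not the outermost one of that span. The windows of Pi16 and Ly6c1, not printed, also reach into their gene spans. Which starts were in use in these cells was not measured. Capitals mark the letters TATAAA, as in a TATA box, and GGGCGG, the GC box bound by Sp1-family factors. Each was searched on both strands and at any place in the window, so a match need not be a working element.
Ackr4, chr9:104126644-104126893, minus strand: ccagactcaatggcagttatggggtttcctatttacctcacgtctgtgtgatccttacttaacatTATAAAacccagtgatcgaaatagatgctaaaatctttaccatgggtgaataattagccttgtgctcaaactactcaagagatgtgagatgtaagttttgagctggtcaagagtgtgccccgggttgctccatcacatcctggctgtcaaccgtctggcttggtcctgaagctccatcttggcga
Dpt, chr1:164796413-164796662, plus strand: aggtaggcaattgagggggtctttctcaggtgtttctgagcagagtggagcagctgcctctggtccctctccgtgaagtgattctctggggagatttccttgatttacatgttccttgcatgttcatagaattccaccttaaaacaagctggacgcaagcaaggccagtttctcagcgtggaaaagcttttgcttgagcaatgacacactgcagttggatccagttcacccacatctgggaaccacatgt
Cd81, chr7:143052500-143052749, plus strand: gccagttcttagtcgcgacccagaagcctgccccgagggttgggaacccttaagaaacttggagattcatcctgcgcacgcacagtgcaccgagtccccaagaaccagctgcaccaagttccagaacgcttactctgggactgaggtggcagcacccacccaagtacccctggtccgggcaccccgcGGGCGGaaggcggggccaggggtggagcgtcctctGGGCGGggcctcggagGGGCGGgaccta
Has1, chr17:17855189-17855438, minus strand: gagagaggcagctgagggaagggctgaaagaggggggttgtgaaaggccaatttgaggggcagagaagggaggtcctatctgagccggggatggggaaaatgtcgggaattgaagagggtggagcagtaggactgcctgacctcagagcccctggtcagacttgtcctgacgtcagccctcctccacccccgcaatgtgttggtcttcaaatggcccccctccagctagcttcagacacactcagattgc
The Cd81 promoter held 3 GC boxes, 63, 28 and 12 bases before the start, and 16 CpG dinucleotides, where the median of 32851 promoters was 6. Has1 held 4 CpG, Ackr4 5 and Dpt 3, none of these with a GC box. The windows of the nearly level genes Cd81 and Has1 thus did not share this feature. Ackr4 held TATAAA 185 bases before its start, and 1 of 2 starts of Ly6c1 held it 143 bases before. A GC box was present in 32.7% of all promoters of this length and TATAAA in 12.4%. The CCAAT box, found in 33.8% of promoters, was present in Has1 and Pi16 and at 1 of 2 starts of Ly6c1. The AP-1 motif TGANTCA, found in 6.75%, was in none of the windows of the 8 genes. These matches describe letters in the windows, and binding was not measured.

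Between the 2 library sets, 8 of the 10 genes were at least 2-fold higher in the genotype libraries with no overlap of values, and Cd81 and Has1 were nearly level. Of the 12043 genes whose mean over the 8 libraries reached 1 FPKM, the same rule took 41.6% in either direction, 21.9% as higher and 19.7% as lower. The shares were 22.8% and 20.6% when only genes reaching 10 FPKM in the genotype set were counted. No marker gene met the rule in the other direction. Of the 12043 genes, 1170 reached that mean only through the genotype libraries and 291 only through the others, with a mean under 1 FPKM in the opposite set. Such a gene could hardly fail to differ, and Ackr4 is the marker among them. The median log2 ratio of FPKM + 1 was 3.01 over the 10 genes and -0.05 over all genes measured. The sets differ in mouse line, in treatment and possibly in normalisation. These differences cannot be told apart, and no test across the sets was made. Of the 6 GABA and taurine libraries, 3 are labelled 0 h. Against these 3 alone, a choice made after the data were seen, 8 markers were higher and 0 lower by the rule. Of the 12693 genes measured in that comparison, 3257 were higher and 2400 lower. Summed over the 10 genes, the level was 4213 FPKM in the floxed control and 4386 FPKM in the conditional knockout, against 603.2 to 658.8 FPKM in the GABA and taurine libraries. Adamdec1 and Dpt weighed most in the genotype sums. Without them, the sums were 1678 and 1738 FPKM against 569.3 to 634.0 FPKM.

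**Figure D1:**
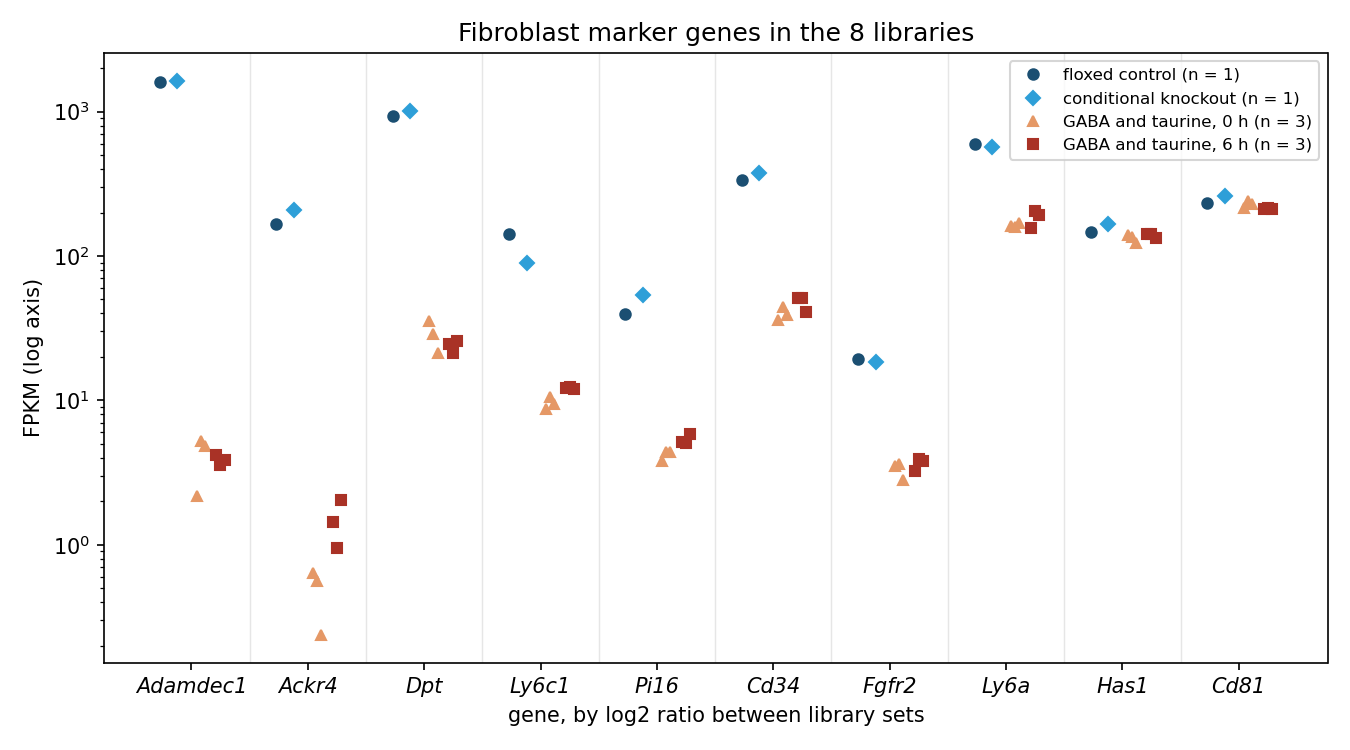
FPKM (log axis) of the 10 marker genes, 1 symbol per library, ordered by the log2 ratio between the genotype libraries and the GABA and taurine libraries. Adamdec1 separates the sets most (1605 and 1637 FPKM against 2.19 to 5.19 FPKM), while the Cd81 values overlap.

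Adamdec1, a secreted metalloprotease of the ADAM family found in lamina propria fibroblasts and macrophages, had the widest gap. It stood at 1605 FPKM in the floxed control and 1637 FPKM in the conditional knockout library. In the 0 h libraries it stood at 2.19, 5.19 and 4.8 FPKM and in the 6 h libraries at 4.19, 3.56 and 3.88 FPKM. Both genotype values thus lay far above all 6 others, and the ratio of the set means was 408-fold. By rank among all 24346 genes, Adamdec1 went from place 26 or 29 in the genotype libraries to places between 7894 and 9580 in the others.

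Ackr4, an atypical receptor that scavenges the chemokines CCL19, CCL21 and CCL25, showed the next largest gap. It stood at 165.5 FPKM in the floxed control and 206.6 FPKM in the conditional knockout. At 0 h its values were 0.633, 0.557 and 0.238 FPKM, and at 6 h 1.43, 0.951 and 2.03 FPKM. The lowest genotype value was 81.5 times the highest of the other 6, and the set means differed 191-fold. Levels near 1 FPKM may rest on few reads, whose number is unknown here.

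Dpt, which encodes the matrix protein dermatopontin that binds collagen and decorin, stood at 931 FPKM in the floxed control and 1011 FPKM in the conditional knockout. Its 0 h values were 35.2, 28.9 and 21.2 FPKM and its 6 h values 24.7, 21.3 and 25.9 FPKM. The sets did not overlap, and the means differed 37.1-fold. Unlike Adamdec1 and Ackr4, Dpt kept more than 20 FPKM in each GABA and taurine library.

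The Ly6 pair differed in how much RNA each set held. Ly6c1 encodes a GPI-anchored surface protein recognised as Ly6C, the antigen the gate was set against. It stood at 140.9 FPKM in the floxed control and 89.6 FPKM in the conditional knockout, between places 624 and 1013 of all genes, so RNA of the excluded antigen was abundant in both sorts. In the GABA and taurine libraries it stood at 8.76, 10.5 and 9.48 FPKM at 0 h and at 12.3, 12.4 and 12.1 FPKM at 6 h, and the set means differed 10.6-fold. Ly6c2 was low everywhere, at 5.06 and 2.96 FPKM in the genotype libraries, at 0.177 FPKM in 0 h replicate 2 and listed at 0 in the other 5.

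Ly6a encodes Sca-1, a surface antigen of stem cells and of adventitial fibroblasts. It stood at 597.4 and 570.2 FPKM in the floxed control and conditional knockout, at 161.7, 158.6 and 169.4 FPKM at 0 h, and at 157.1, 204.4 and 192.1 FPKM at 6 h. The means differed 3.36-fold, the smallest of the 8 genes that met the rule. Reads of Ly6 genes may be split between copies: 32.8% of the 50-base words in Ly6c1 transcripts also occur in another gene, 21.5% in Ly6c2, and 19.0% of those of Ly6a do, 15% in Ly6c1. The sources used here give neither the read length nor how such reads were assigned, so the Ly6 values are uncertain. For Cd81, Ackr4, Dpt, Has1 and Adamdec1 no such word was shared with another gene.

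Cd34, a sialomucin of vessels, blood progenitors and fibroblasts, stood at 335.2 FPKM in the floxed control and 372.9 FPKM in the conditional knockout. It stood at 36.2, 44.6 and 39.0 FPKM at 0 h and 50.8, 51.0 and 41.2 FPKM at 6 h, a difference of 8.08-fold between the set means. Pi16, a secreted peptidase inhibitor family protein of adventitial fibroblasts, stood at 39.4 and 53.8 FPKM in the floxed control and conditional knockout. Its values were 3.78, 4.4 and 4.41 FPKM at 0 h and 5.13, 5.05 and 5.89 FPKM at 6 h, and the set means differed 9.75-fold. Both genes were well separated between the sets, with lowest genotype values 6.58 and 6.69 times the highest of the others.

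Fgfr2, the receptor for FGF7 and FGF10 in its epithelial splice form and for other FGFs in its mesenchymal form, had the lowest level of the 10 genes in the genotype libraries, 19.4 FPKM in the floxed control and 18.5 FPKM in the conditional knockout. It stood at 3.54, 3.63 and 2.81 FPKM at 0 h and 3.23, 3.93 and 3.80 FPKM at 6 h, and the means differed 5.43-fold. The values cover the whole gene, so the splice forms were not told apart.

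Has1 and Cd81 stood apart from the other 8 genes. Has1, a hyaluronan synthase of the plasma membrane, stood at 147.7 and 167.2 FPKM in the floxed control and conditional knockout, at 139.6, 135.9 and 123.2 FPKM at 0 h and at 142.1, 141.8 and 132.9 FPKM at 6 h. Both genotype values lay above the other 6, but the means differed only 1.16-fold. Values that did not overlap in this direction, whatever the size, were found for 37.8% of genes. Cd81, a tetraspanin that organises receptors and integrins in the membrane, stood at 232.0 and 259.2 FPKM in the genotype libraries. It stood at 215.2, 241.6 and 228.7 FPKM at 0 h and at 213.1, 214.5 and 213.1 FPKM at 6 h, so its sets overlapped, with means 1.11-fold apart. The log2 ratio of Cd81 was 0.15, and 0.25 with each library scaled to the same total, while that of Has1 was 0.21 and 0.31.

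The order of levels was accordingly rearranged. In the genotype libraries it ran from Adamdec1 through Dpt, Ly6a, Cd34, Cd81, Ackr4, Has1, Ly6c1 and Pi16 to Fgfr2, and the neighbours Ackr4 and Has1 overlapped in their values. In the GABA and taurine libraries it ran from Cd81 through Ly6a, Has1, Cd34, Dpt, Ly6c1, Pi16, Adamdec1 and Fgfr2 to Ackr4, where Pi16 and Adamdec1 overlapped, as did Adamdec1 and Fgfr2. Cd81 headed the second order although its own level was nearly the same in both sets.

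Other genes of the same cells were also mostly higher in the genotype libraries, as were genes of their PDGFRα-high neighbours. Of 20 measured further genes of CD81-positive and adventitial fibroblasts, 14 were at least 2-fold higher in the genotype libraries without overlap, 3 were lower and 3 met neither rule, and 2 of the 20 were measured only through the genotype libraries. Clec3b, which encodes the plasminogen-binding protein tetranectin, stood at 258.6 and 271.1 FPKM against 1.55 to 2.93 FPKM, and Efemp1, which encodes the matrix protein fibulin-3, at 577 and 548.4 FPKM against 8.14 to 12.2 FPKM. Gpx3, a secreted glutathione peroxidase, stood at 2929 and 2931 FPKM against 70.2 to 77.2 FPKM. Lower in the genotype libraries were the Wnt potentiator Rspo3 (4.81 and 4.34 FPKM against 15 to 22.2 FPKM) and the annexin Anxa3 (43.2 and 71.1 FPKM against 211.5 to 234.6 FPKM). Of 19 measured genes of PDGFRα-high subepithelial cells, 14 were higher and 1 lower, but 6 of the 19 were measured only through the genotype libraries. The BMP ligand gene Bmp5 stood at 188.8 and 196.0 FPKM against 1.35 to 2.76 FPKM, and Foxl1 at 10.2 and 11.6 FPKM against 0.109 to 0.289 FPKM. The higher level in the genotype libraries was thus not limited to genes of the PDGFRα-low cells.

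Markers of leukocytes, epithelium and endothelium, which the gate was set against, were also higher in sum in the genotype libraries. Leukocyte markers summed to 248.3 and 292.6 FPKM there against 5.15 to 17.7 FPKM, and of all 14 listed, measured or not, 13 had both genotype values above the other 6. Ptprc, which encodes CD45, was listed at 0 in 3 of the 6 GABA and taurine libraries. Epithelial markers summed to 103 FPKM in the floxed control and 941.2 FPKM in the conditional knockout against 2.63 to 8.12 FPKM. Car1 alone made up 57.2 and 614.0 FPKM of the 2 genotype sums, while Epcam stood at 4.18 and 14.6 FPKM. Of the epithelial markers listed, 14 of 14 had both genotype values above the other 6, and Fabp2 was at 0 in all 6. Endothelial markers, relevant to Cd34, Ly6a and Ly6c1, summed to 72.6 and 45.6 FPKM against 14.4 to 21.2 FPKM, with 10 of 12 listed above the other 6 and Tie1 and Cldn5 at 0 in all 6. Pericyte and smooth muscle markers lay the other way in sum, at 673.8 and 797.9 FPKM against 972.2 to 1069 FPKM, although 7 of 10 listed lay above the other 6 and 3 below. Mesothelial markers, relevant to Has1, summed to no more than 6.26 FPKM in any library, and lymphatic endothelial and glial markers to at most 11.4 and 6.16 FPKM. For these counts of listed genes no share over all listed genes was computed. The 37.8% given for Has1 covers only the 12043 measured genes. Under 1 FPKM in all 6 GABA and taurine libraries were 10 of 14 leukocyte and 9 of 14 epithelial markers. The same held for 8 of 12 endothelial and 3 of 10 pericyte and smooth muscle markers. More genes of any kind were above 0 in the genotype libraries, so the counts alone do not set these markers apart. The part of these other cell types in the marker gene differences was not tested.

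**Figure D2:**
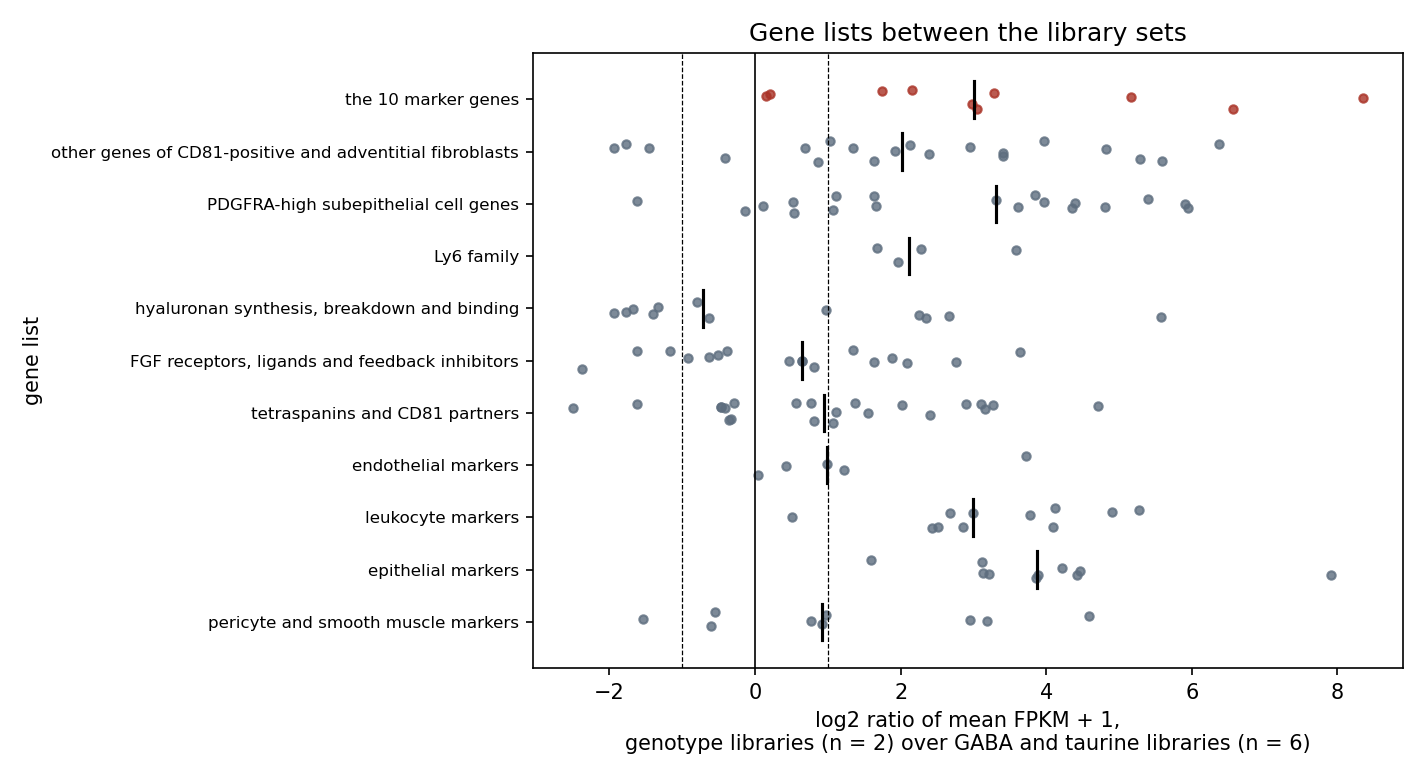
Log2 ratio of mean FPKM + 1 between the genotype libraries and the GABA and taurine libraries, 1 point per gene whose mean over the 8 libraries reached 1 FPKM, with a bar at each list's median and dashed lines at 2-fold (list genes other than the 10 markers are shown in grey). The 10 marker genes (median 3.01) all lie to the right of 0 and the hyaluronan genes on both sides, while 8 of 10 epithelial and 8 of 11 leukocyte points were measured only through the genotype libraries.

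Genes that work with individual markers did not follow them as a block. Beside Has1, the 12 measured genes of hyaluronan synthesis, breakdown and binding held 4 higher and 5 lower by the rule, and of the 12 only 2 were measured through the genotype libraries alone and 1 through the others alone. Has2, another hyaluronan synthase, stood at 19.9 and 22.6 FPKM against 29.5 to 40.3 FPKM, and Has3 at no more than 0.243 FPKM in any library, so Has1 was the most abundant of the 3 synthases in each of the 8. Ugdh, which makes the UDP-glucuronate that these enzymes consume, stood at 91.1 and 104 FPKM against 322.2 to 360.9 FPKM. Tnfaip6, a hyaluronan-binding protein induced in inflammation, lay the other way, at 165 and 193.4 FPKM against 29.9 to 46.5 FPKM.

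Beside Fgfr2, 17 measured FGF receptors, ligands and feedback inhibitors held 6 higher and 3 lower genes. Fgfr1 was more abundant than Fgfr2 in each of the 8 libraries, at 92.7 and 102.8 FPKM against 140.6 to 163 FPKM, opposite in direction to Fgfr2. Fgf2 stood at 5.77 and 2.30 FPKM against 21.7 to 29.2 FPKM, and the feedback inhibitor Spry1 at 184.7 and 233 FPKM against 22.8 to 43.9 FPKM. Of 22 measured tetraspanins and partners of Cd81, 11 were higher and 2 lower, with 4 of the 22 measured only through the genotype libraries. Tspan4 stood at 84.3 and 65.0 FPKM against 418.5 to 434.8 FPKM, whereas Ifitm1, an interferon-induced membrane protein, stood at 728.1 and 655.2 FPKM against 20.5 to 29.2 FPKM. In the Ly6 family, Ly6e stood at 290.2 and 289.2 FPKM against 62.0 to 87.1 FPKM. Of its 17 members beside Ly6a and Ly6c1, 4 were measured, 2 of them (Ly6d and Ly6c2) only through the genotype libraries, so no count is drawn from them. Of 9 measured atypical chemokine receptors and ACKR4 ligands, 6 were higher and 1 lower, with 5 of the 9 measured only through the genotype libraries. Among them the chemokine Cxcl13 stood at 25.7 and 25.8 FPKM against 0 to 0.839 FPKM, while Ccl25, an ACKR4 ligand, stood at 3.87 and 2.62 FPKM against 6.06 to 8.70 FPKM. In the list of sialomucins and CD34 ligands, Podxl2 stood at 13.5 and 13.3 FPKM against 0.465 to 1.24 FPKM.

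The genes whose pattern over the 8 libraries was most like that of a marker were found by Pearson's r of log2(FPKM + 1), as a description. For Ly6c1, where the difference between the sets carries most of the weight, they were Serinc4 (r = 0.997), Igfbp3 (r = 0.997) and Fhl1 (r = 0.995). Igfbp3, an IGF-binding protein, stood between 358.9 and 446.4 FPKM in the genotype libraries and between 50.5 and 68.4 FPKM in the others. For Cd81, whose sets overlap so that spread within the sets counts too, they were P2rx4 (r = 0.949), Abi2 (r = 0.937) and Efnb2 (r = 0.925). P2rx4, an ATP-gated channel, stood between 24.4 and 28.2 FPKM against 20.1 and 25.9 FPKM. The comparison was over 5115 genes with at least 10 FPKM in both sets.

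The conditional knockout and floxed control libraries show the marker levels with and without Foxl1-driven Cre on floxed Cxcl12 alleles. None of the 10 markers differed 2-fold between the conditional knockout and the floxed control library, where 3.59% of 14949 genes did on the log2(FPKM + 1) scale, 1.36% higher and 2.22% lower. With 1 library per genotype there is no replicate check and no test. The conditional knockout library was higher for 7 markers and lower for 3, with a median log2 difference of 0.14 against 0.04 over all genes, of which 55.0% were higher. With each library scaled to the same total, the value of Adamdec1 turned from 0.03 to -0.01.

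**Figure D3:**
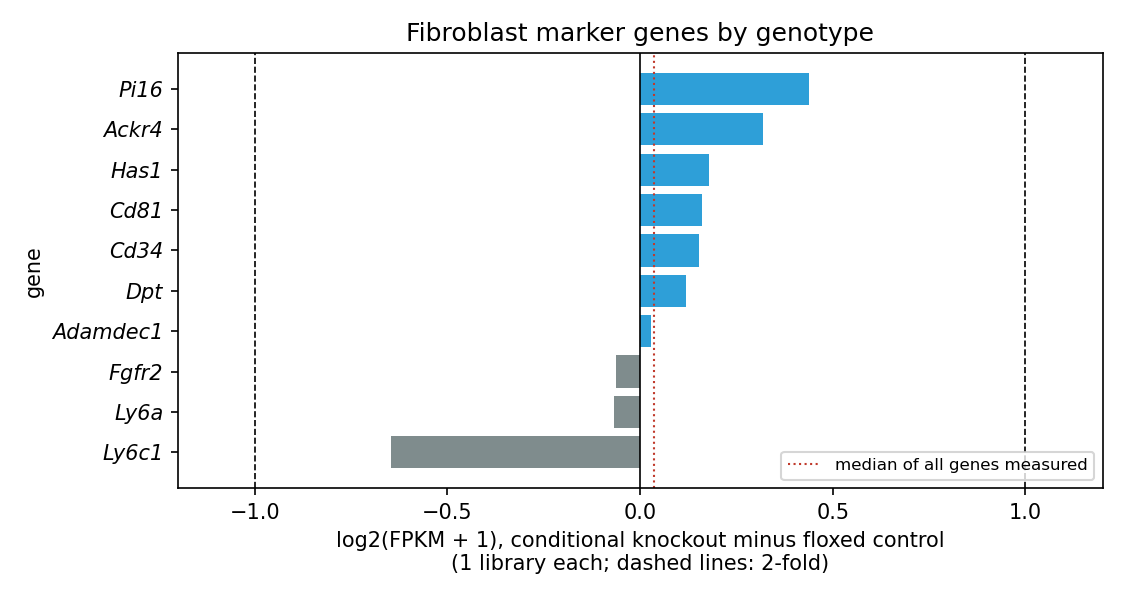
Difference of log2(FPKM + 1) for each marker gene, conditional knockout minus floxed control, 1 library each, with dashed lines at 2-fold and a dotted line at the median of all genes measured. Pi16 (0.44) and Ackr4 (0.32) lie highest and Ly6c1 (-0.65) lowest, and no gene reaches 2-fold.

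Ly6c1 had the largest difference of the 10. Its level in the conditional knockout library was 0.636 times that in the floxed control, a log2 difference of -0.65, and 5.78% of all genes measured lay lower. Of the 898 genes averaging 100 FPKM or more, 22 lay lower, and the median of these genes was 0.07. Ly6c2 lay in the same direction (5.06 and 2.96 FPKM), while Ly6a, the neighbouring marker, had a ratio of 0.954 and Ly6e one near level (290.2 and 289.2 FPKM). Relative to Pdgfra, Ly6c1 was at 0.698 in the floxed control and 0.397 in the conditional knockout library.

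Endothelial markers lay lower in the same library as Ly6c1. Of all 12 listed, 8 were lower and 4 higher, and the 3 past 2-fold, Egfl7, Emcn and Kdr, were lower. Egfl7 stood at 0.557 FPKM against 5.40 FPKM in the floxed control and Plvap, a protein of fenestrated vessels, at 11.8 against 22.5 FPKM. Cd34, also an endothelial gene, had a ratio of 1.11 in the other direction. Epithelial markers lay higher in the conditional knockout library for 14 of 14 listed, 10 of them at least 2-fold, and leukocyte markers for 11 of 14 with none past 2-fold. The part of these cells in the Ly6c1 difference was not tested.

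Pi16 and Ackr4 lay highest among the markers in the conditional knockout library. Pi16 had a ratio of 1.37 and a log2 difference of 0.44, and 92.4% of all genes lay lower. Ackr4 had a ratio of 1.25 and a log2 difference of 0.32, with 86.2% of genes lower. The ratio was 1.13 for Has1, 1.12 for Cd81, 1.09 for Dpt, 1.02 for Adamdec1 and 0.956 for Fgfr2. The further genes of CD81-positive and adventitial fibroblasts showed no 2-fold difference in 21 measured genes, 14 higher and 7 lower, with a median of 0.04, close to that of all genes. Anxa3 (43.2 FPKM in the floxed control, 71.1 FPKM in the conditional knockout) and Igfbp6, which binds IGF2 (246.8 and 316 FPKM), were furthest above among those reaching 5 FPKM, and Wnt2b (16.9 and 12.5 FPKM) was furthest below. Few genes of the lists around single markers passed 2-fold by genotype, and those that did were at low levels in the floxed control. Ccl21a, which encodes an ACKR4 ligand, stood at 0.005 FPKM in the floxed control and 18.2 FPKM in the conditional knockout. It has near-identical copies, Ccl21b and Ccl21c, both listed at 0 in all 8 libraries. How reads were assigned among these copies is unknown. Lower in the conditional knockout were Fgf2 (5.77 and 2.30 FPKM), the sialomucins Podxl (2.75 and 0.803 FPKM) and Emcn (3.97 and 1.44 FPKM), and the hyaluronidase gene Spam1 (3.35 and 1.00 FPKM). Ly6k stood at 0.354 and 1.98 FPKM.

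The time comparison sets 6 h of GABA and taurine against 0 h. No marker passed the test: 9 of the 10 had a mean of at least 1 FPKM over the 6 libraries, and 0 of these had an adjusted p under 0.05 in limma, where 0.550% of 10910 genes did. An unadjusted p under 0.05 was found for 3 of the 9, Ly6c1, Cd34 and Pi16, against 9.38% of all genes. Over the 9 genes the median log2 change was 0.11 against 0.00 over all genes, 7 positive and 2 negative. No untreated 6 h library is among the samples, so time and treatment cannot be told apart. The exact two-sided permutation test cannot go below 0.1 with 3 against 3 libraries.

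**Figure D4:**
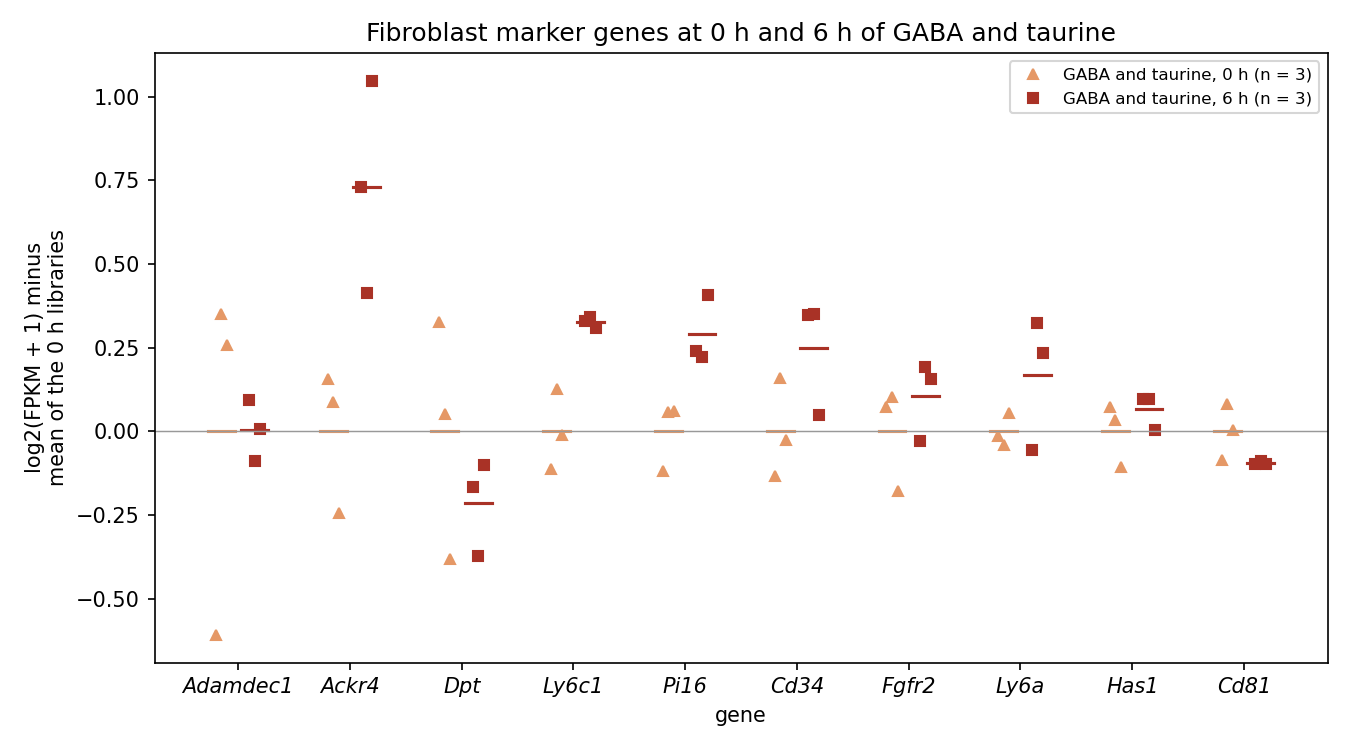
Log2(FPKM + 1) of each marker gene in the 0 h and 6 h libraries (n = 3 each), minus the mean of the 0 h libraries, with a bar at each group's mean. The groups do not overlap for Ackr4, Ly6c1, Pi16 and Cd81, and the 6 h values of Cd81 lie below its 0 h values.

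Ly6c1 stood at 9.59 ± 0.886 FPKM at 0 h and 12.2 ± 0.154 FPKM at 6 h (SD, n = 3). All 3 values at 6 h lay above those at 0 h, with a log2 difference of 0.33 (SE 0.10, 95% interval 0.10 to 0.55) and an adjusted p of 0.314 in limma, the smallest of the 9. Pi16 stood at 4.20 ± 0.358 and 5.35 ± 0.463 FPKM (SD, n = 3), again without overlap, with a log2 difference of 0.29 (95% interval 0.00 to 0.58) and an adjusted p of 0.53 in limma. Among all genes tested, 7.25% had all 6 h values above all 0 h values.

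Ackr4 stood at 0.476 ± 0.210 FPKM at 0 h and 1.47 ± 0.541 FPKM at 6 h (SD, n = 3). Its groups did not overlap and its ratio of means, 3.09, was the largest of the 10, but its mean over the 6 libraries was 0.973 FPKM and it was left out by the filter. With no filter on low values, its log2 difference was 0.73 (SE 0.19) with an adjusted p of 0.449 in limma. Even the highest 6 h value, 2.03 FPKM, was a small part of the 165.5 FPKM in the floxed control library.

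Cd81 was the marker with non-overlapping values in the other direction. It stood at 228.5 ± 13.2 FPKM at 0 h and 213.6 ± 0.811 FPKM at 6 h (SD, n = 3), with a log2 difference of -0.10 (95% interval -0.21 to 0.02) and an adjusted p of 0.632 in limma. The 6 h values lay between 213.1 and 214.5 FPKM, and the lowest 0 h value, 215.2 FPKM, lay just above them. All 6 h values lay below all 0 h values for 8.01% of genes tested. Pdgfra, the gene of the gate, lay in the opposite direction, at 152.3, 182.7 and 195.5 FPKM at 0 h and 227.3, 218.6 and 207.6 FPKM at 6 h. Its groups did not overlap, with a ratio of means of 1.23 and a log2 difference of 0.31 (95% interval 0.13 to 0.48), and its adjusted p was 0.15 in limma.

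The remaining markers overlapped between 0 h and 6 h. Cd34 stood at 39.9 ± 4.27 and 47.7 ± 5.63 FPKM (SD, n = 3), with a log2 difference of 0.25 (95% interval 0.04 to 0.46) and an adjusted p of 0.44 in limma. Ly6a stood at 163.2 ± 5.57 and 184.5 ± 24.5 FPKM (SD, n = 3), where 6 h replicate 1 lay below the 0 h values, and Dpt at 28.4 ± 7.05 and 24.0 ± 2.39 FPKM. The 95% interval of the log2 difference ran from -0.01 to 0.35 for Ly6a and from -0.53 to 0.10 for Dpt. Single libraries moved both values: the difference of Dpt was -0.05 without 0 h replicate 1 and -0.40 without 0 h replicate 3, and that of Ly6a 0.28 without 6 h replicate 1 and 0.09 without 6 h replicate 2, none of them called. Has1 (132.9 ± 8.60 and 139.0 ± 5.22 FPKM), Fgfr2 (3.33 ± 0.449 and 3.65 ± 0.373 FPKM) and Adamdec1 (4.06 ± 1.64 and 3.87 ± 0.311 FPKM) had intervals from -0.07 to 0.20, from -0.22 to 0.43 and from -0.47 to 0.48. A change of Has1 by more than 0.20 upward is outside its interval, while the low levels of Adamdec1 and Fgfr2 leave wider ranges.

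No gene of the fibroblast lists or of the lists around single markers passed the test at 6 h either, in limma. The counts were 0 of 18 further genes of CD81-positive and adventitial fibroblasts, with 9 positive and 9 negative changes and 1 unadjusted p under 0.05, and 0 of 13 PDGFRα-high genes, with 11 positive and 2 negative changes, a median of 0.17 and 7 such values. The summed PDGFRα-high genes did not overlap, at 1218 to 1274 FPKM at 0 h and 1405 to 1421 FPKM at 6 h. The sums of the further CD81-positive and adventitial genes did (826.5 to 861.8 and 847.9 to 872.8 FPKM). Abundant genes weigh most in such sums, for which no background was computed. In the PDGFRα-high list F3 alone stood at 393.0 to 428.9 FPKM at 0 h and 468.9 to 523.4 FPKM at 6 h (adjusted p = 0.0877 in limma). Among lists around single markers, the counts were 0 of 10 hyaluronan genes with 2 such values, 0 of 15 FGF pathway genes with 4, 0 of 18 tetraspanins and partners with 2, 0 of 2 Ly6 genes with 1, 0 of 4 chemokine receptors and ligands with 1, and 0 of 4 sialomucins with 0. Rspo3 stood at 15 to 17.4 FPKM at 0 h and 18.1 to 22.2 FPKM at 6 h (adjusted p = 0.31 in limma), and Tnfaip6 at 29.9 to 34.9 and 38.8 to 46.5 FPKM (adjusted p = 0.138). Ly6e stood at 62.0 to 69.2 and 78.1 to 87.1 FPKM (adjusted p = 0.1), in the direction of Ly6c1. Spred1, an inhibitor of receptor signalling to ERK, stood at 53.9 to 59.8 and 41.8 to 48.6 FPKM (adjusted p = 0.0963). Among markers of other cells, Krt8, a keratin of epithelium, passed in limma and rose from at most 0.729 FPKM to at least 1.75 FPKM (log2 change 1.15, adjusted p = 0.0319). With no filter on low values, or with no trend in the prior variance, no gene was called, Krt8 included. The summed epithelial markers stood at 2.63 to 3.91 FPKM at 0 h and 4.83 to 8.12 FPKM at 6 h. Mesothelial markers, none of which reached the mean for the test, summed to 1.23 to 1.54 FPKM at 0 h and 2.61 to 3.11 FPKM at 6 h, without overlap. Among them Msln, which encodes mesothelin, stood at 0, 0 and 0.026 FPKM and at 1.02, 0.731 and 0.583 FPKM. The sums overlapped for endothelial markers (14.4 to 19.4 and 18 to 21.2 FPKM) and for leukocyte markers (5.15 to 17.7 and 9.49 to 15.2 FPKM), and their part in the marker gene values was not tested.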

How the data were processed

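The authors deposited FPKM values in 1 table per library, and gene length and library size are thus already divided out, per the file headers. TopHat2 2.1.1, Bowtie2 2.2.8, mm10, Cuffdiff 2.2.1 and SAMtools 0.1.18 appear in the submitters' processing notes. SMART-Seq HT cDNA went into Nextera XT libraries, per the labels' protocols, which does not mark strand, so antisense reads are not told apart. FPKM are not counts, and the sources used here give no read depth, annotation or scaling between libraries.

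Here, log2(FPKM + 1) of the 0 h and 6 h libraries was fitted with limma 3.58.1 (R 4.3.3) with an intensity trend, over the 10910 genes whose mean reached 1 FPKM, with Benjamini-Hochberg adjustment and a threshold of 0.05. Differences of low genes are understated by the added 1. The labels do not say that replicates were separate animals or cultures, so p-values reflect only the spread of these libraries, which may be technical. The genotype and library-set comparisons were described without a test, with 2-fold taken on the FPKM + 1 scale. The fit was tested on simulated data. The 10 markers and the 15 gene lists around them (216 of 217 genes found, markers included) were chosen with earlier results of these data known. Named were the 10 markers, the gate and study genes, Ly6c2 and, per list, up to 3 genes each with the smallest limma p for time, the largest genotype difference and the largest set difference, the latter 2 among genes reaching 5 FPKM, and for Cd81 and Ly6c1 the 3 genes most like them. Has3, Ly6k, Spam1, Emcn, Kdr, Msln and the cell type markers listed at 0 fall outside this rule and were chosen after their values were seen. Alternatives were other pseudocounts, filters and scalings, no variance trend, a replicate block and leaving out each library.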

Additional observations from a re-analysis of the deposited data

How the results depend on the processing

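In the time comparison 0 markers were called under each of the 13 alternatives, while the 60 genes called overall became 0 with no filter on low values (1322 unadjusted p under 0.05) and 0 with no trend in the prior variance (960). Leaving out 1 library gave 2 to 115 calls: 6, 3 and 115 without 0 h replicates 1, 2 and 3, and 4, 2 and 41 without 6 h replicates 1, 2 and 3. With the replicate block 23 genes and 0 markers were called. Same-numbered libraries showed little shared deviation (correlations -0.04, 0.01 and -0.03). Whether the numbers pair the libraries is not stated, and such correlations cannot settle it. The log2 change of Adamdec1 was 0.00 and ran from -0.30 to 0.18 with 1 library left out, negative without 0 h replicate 1 (-0.30) or 6 h replicate 1 (-0.04). The same omissions gave -0.40 to -0.05 for Dpt and 0.09 to 0.28 for Ly6a. Between the library sets 8 markers were higher and 0 lower under every alternative, including the 0 h libraries alone, chosen after the data were seen. Higher in the genotype libraries were 2633 of 12043 genes. This count became 5254 of 22128 with no filter and 4179 of 13659 when scaled to the same total. That scaling moved the median of all genes from -0.05 to 0.20. In the genotype comparison 0 markers passed 2-fold under each alternative. Of 14949 genes, 204 were higher and 332 lower, and these counts became 384 and 766 with a pseudocount of 0.1. When scaled to the same total, they became 390 and 901 of 17588 genes. The unknown read number limits statements on genes near 1 FPKM, such as Ackr4 in the GABA and taurine libraries.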

Other observations

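The ratio of Cd34 to Ly6c1, both in FPKM, was examined after their values were seen. It stood at 2.38 in the floxed control library and at 4.16 in the conditional knockout library. In the GABA and taurine libraries it stood at 4.13, 4.24 and 4.12 at 0 h and at 4.15, 4.11 and 3.41 at 6 h. For this ratio the conditional knockout library thus lay within the range of the GABA and taurine libraries, and the floxed control library lay below it. The level of each gene was nevertheless far higher in both genotype libraries. The ratio of Ly6a to Ly6c1 did not follow the same order. It stood at 4.24 and 6.36 in the floxed control and conditional knockout libraries and between 12.8 and 18.5 in the others. The ratio of Cd81 to Pdgfra was 1.15 in both genotype libraries, 1.17 to 1.41 at 0 h and 0.937 to 1.03 at 6 h. The mean of Pdgfra at 6 h was 1.23 times that at 0 h and the mean of Cd81 0.935 times. No test was made of these ratios.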
